A study of Mus musculus with 36 samples.

Results

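The genes described here code for the collagens, the laminin chains and the MMP and ADAMTS families of metalloproteases that cut the extracellular matrix, together with tissue inhibitors of metalloproteinases. Members were picked by a rule on gene names that holds no measured values, though earlier results of these data were known when it was chosen. They have symbols of the form Col-number-a-number, or are Lama, Lamb and Lamc chains, numbered Mmp genes other than the neutrophil collagenase Mmp8, numbered Adamts genes, or Timp3 and Timp4. Of the 12394 genes with a symbol on the array, 62 were members, carried by 72 of 18183 probes. They comprise 8 fibrillar collagens, 6 type IV collagens of the basement membrane, 2 type VI collagens, 6 fibril-associated collagens, 2 multiplexins, 5 other collagens, 10 laminin chains, 6 secreted and 4 membrane-type matrix metalloproteinases (MMPs), 11 ADAMTS proteases and 2 inhibitors. Col26a1 appears on the platform under the symbol Emid2, and Lamb1 under Lamb1-1.

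Collagens I, III and V form the fibrils of connective tissue and are made mainly by fibroblasts, whereas type IV collagen and the laminins, trimers of an alpha, a beta and a gamma chain, are the sheet-forming networks of the basement membrane under endothelium, epithelium and around muscle. MMPs cut collagens and laminins. Several ADAMTS enzymes cut the proteoglycans versican and aggrecan, and others trim the ends of procollagens. TIMP proteins block many of these enzymes. Inflammatory signals are known to induce several of these proteases in fibroblasts, endothelium and macrophages.

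Total RNA was hybridised to 36 one-colour (Cy5) arrays, 3 for each of 3 treatments in brain, heart, kidney and liver. All mice were female, 6 to 8 weeks old, of the FVB strain and transgenic, carrying a luciferase reporter that was imaged. The mock group received no treatment. The LPS group received bacterial lipopolysaccharide, the outer-membrane component that triggers acute systemic inflammation, at 4 mg/kg into the peritoneal cavity. The LPS+genipin group received the same LPS and, 10 min later, genipin, an iridoid from gardenia fruit. Tissues were taken 4 h later, so all values concern early transcript changes and no protein. What drives the luciferase is not stated in the sources used. The series lists genipin at 1, 10 and 100 mg/kg, without saying which dose the arrayed mice received. Nothing says that the 3 arrays of a group were 3 separate mice, so the p-values rest on the spread among these arrays alone, which may be technical.

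Values were linear intensities that the authors had normalized within each tissue, with array medians of 2096 to 2098 in brain and 1252 to 1253 in liver at the extremes. Intensities below 262.7, the 5th percentile of all values, were set to that floor, and a group with all 3 arrays there has only a bound. The floor also leaves no spread in such a group. The spread fitted for that gene in that tissue is then understated, and the p-values printed beside a bound rest on it. Arrays of a group correlated at 0.985 to 0.998. Probes with no value in a tissue lacked one on all 9 of its arrays, so 48 members were measured for brain, 45 for heart, 45 for kidney and 21 for liver. The criterion behind those missing values is unstated, and a gene that was present in the treated group alone could have passed it, so counts below concern measured members. Of the members, 17 could be followed in 4 tissues, 16 in 3, 14 in 2 and 15 in 1. In mock arrays the median member lay at log2 9.51 for brain, 11.44 for heart, 10.30 for kidney and 9.25 for liver, against 11.33, 10.76, 11.05 and 10.43 for all genes measured in those tissues.

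The labelled tissues carried their own markers. Median log2 intensity over all arrays of the tissue was 15.67 to 16.00 for the 3 measured neuron markers in brain, 16.00 for the 5 ventricular cardiomyocyte markers in heart, 15.42 to 15.98 for the 5 proximal tubule markers in kidney and 15.99 to 16.00 for the 4 measured hepatocyte markers in liver. Some groups also differed in markers of other cells or regions. Skeletal muscle markers (4 of 5 measured) had medians of 14.51 to 14.60 on the mock brain arrays and of 8.80 to 8.95 on the treated ones. The summed intensity of the choroid plexus and meninges list (4 of 5 measured) was 7577 to 8877 on the LPS brain arrays, 70660 to 71700 on mock and 73630 to 74580 on LPS+genipin. The median log2 intensity of that list moved little, at 11.05 to 11.27 with LPS and 11.24 to 11.37 in mock, which overlap. With LPS+genipin it was 11.51 to 11.62, so the low sum is no fall of the whole list. The LPS hearts had high atrial markers (2 of 4 measured, median 15.95 to 16.00 against 10.36 to 10.99 in both other groups) and high adipocyte markers (3 of 5 measured, 14.30 to 14.63 against 9.98 to 10.17). In kidney, fibroblast markers (5 of 7 measured) summed to 18780 to 19060 with LPS+genipin, 12740 to 13360 with LPS and 13000 to 13390 in mock. Each pattern held on all 3 arrays of its group, so no member result could be given without it, and the part of these markers in the member results was not tested. In whole-tissue RNA, fewer cells of a type and less RNA per cell cannot be told apart.

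The windows around the transcription start are shown first for 5 of the members that rose with LPS wherever they were measured, since the results below return to them: Mmp13 for the largest rise, Mmp3 for being at the floor without LPS, Adamts1 and Col4a2 for being called in all 4 tissues, and Col4a1 for sharing its start region with Col4a2. Each runs from 250 bases before to 50 bases after a transcription start, from RefSeq on GRCm38.p6. For Col4a1 the start used lies inside the gene, whose outer end in RefSeq is base 11312889, and the stretch shared with Col4a2 depends on that start. Capitals in the first 3 mark matches on either strand to the AP-1 motif TGANTCA or the TATA motif TATAAA, and none of the 5 held the kappa-B consensus. Capitals in the last 2 mark the 78 bases that both windows share as reverse complements, because Col4a1 and Col4a2 lie head to head and are read from opposite strands.
Mmp13, chr9:7272264-7272563, plus strand: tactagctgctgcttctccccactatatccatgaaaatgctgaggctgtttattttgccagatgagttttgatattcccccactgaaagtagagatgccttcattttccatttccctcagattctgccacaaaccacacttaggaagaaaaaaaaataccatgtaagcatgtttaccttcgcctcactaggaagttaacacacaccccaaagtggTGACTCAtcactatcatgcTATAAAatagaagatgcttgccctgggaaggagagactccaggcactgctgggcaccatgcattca
Mmp3, chr9:7445572-7445871, plus strand: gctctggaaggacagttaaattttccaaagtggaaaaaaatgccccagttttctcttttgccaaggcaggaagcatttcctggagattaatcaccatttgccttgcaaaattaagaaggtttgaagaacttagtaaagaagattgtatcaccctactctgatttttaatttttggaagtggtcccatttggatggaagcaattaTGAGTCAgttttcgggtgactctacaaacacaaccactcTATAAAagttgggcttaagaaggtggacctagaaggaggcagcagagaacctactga
Adamts1, chr16:85803064-85803363, minus strand: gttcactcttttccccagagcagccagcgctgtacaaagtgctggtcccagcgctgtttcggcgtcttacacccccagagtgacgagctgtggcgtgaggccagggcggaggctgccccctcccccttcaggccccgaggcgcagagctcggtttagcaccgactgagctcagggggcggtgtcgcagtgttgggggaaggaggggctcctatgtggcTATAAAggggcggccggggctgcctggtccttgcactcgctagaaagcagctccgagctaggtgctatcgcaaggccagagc
Col4a1, chr8:11312777-11313076, minus strand: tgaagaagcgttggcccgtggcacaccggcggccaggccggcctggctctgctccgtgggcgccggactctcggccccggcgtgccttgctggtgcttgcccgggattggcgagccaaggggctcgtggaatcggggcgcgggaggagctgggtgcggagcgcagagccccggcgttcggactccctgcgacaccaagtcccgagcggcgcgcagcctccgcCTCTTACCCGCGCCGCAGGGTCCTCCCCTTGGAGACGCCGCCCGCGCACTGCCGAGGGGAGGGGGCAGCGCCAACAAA
Col4a2, chr8:11312555-11312854, plus strand: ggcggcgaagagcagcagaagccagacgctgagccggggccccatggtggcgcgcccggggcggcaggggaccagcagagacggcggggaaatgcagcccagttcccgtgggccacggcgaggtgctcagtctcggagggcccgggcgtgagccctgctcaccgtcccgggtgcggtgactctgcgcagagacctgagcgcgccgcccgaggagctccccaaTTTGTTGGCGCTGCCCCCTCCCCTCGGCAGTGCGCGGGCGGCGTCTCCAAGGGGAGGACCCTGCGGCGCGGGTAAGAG

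The AP-1 motif, a site read by Fos and Jun proteins, occurred once in each of the Mmp13 and Mmp3 windows, and in both cases a TATAAA lay between it and the start. Those were the only 2 of 45 member windows (41 of the 62 members had a window, some with more than 1) that held it, 4.44% against 7.81% of all 32851 windows. The kappa-B consensus was found in 4 of 45 member windows, belonging to Col27a1, Col9a2 and Lamb3, or 8.89% against 4.51% of all windows. TATAAA was found in 5 of 45, those of Adamts1, Col13a1, Col3a1, Mmp13 and Mmp3, or 11.1% against 13.6% of all windows. The GC box GGGCGG, searched on both strands, was found in 29 of 45 (64.4% against 35.7%), with 3 matches each in the Adamts1 and Col4a2 windows. These are matches of letters in a short window and no measurement of binding.

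LPS moved matrix genes in both directions in each tissue. Against mock, 17 of the 48 measured members were higher and 7 lower in brain, 13 and 9 of 45 in heart, 19 and 13 of 45 in kidney, and 9 and 6 of 21 in liver (limma, Benjamini-Hochberg adjusted p under 0.05 over all genes of the tissue). Of all genes measured, 33.9% were called in either direction for brain, 47.1% for heart, 64.4% for kidney and 66% for liver, against 50%, 48.9%, 71.1% and 71.4% of the members. The member share exceeded the background by most in brain and by least in heart. Among members the median absolute log2 difference was 0.30 for brain, 0.33 for heart, 0.38 for kidney and 0.44 for liver, beside 0.19, 0.29, 0.30 and 0.42 over all genes. The median signed difference was 0.01 for brain, 0.04 for heart, 0.04 for kidney and 0.13 for liver, near the all-gene values of 0.00, -0.06, -0.09 and -0.03.

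With LPS, 7 members rose in every tissue where they were measured, counting those measured in 3 or 4: Adamts1, Adamts9, Adamts15, Col4a1, Col4a2, Mmp3 and Mmp13. None fell in every tissue. Mmp3 was at the floor on all its mock arrays, so it may have counted as measured only through its LPS arrays. Col18a1, Col1a1, Col20a1, Col8a1, Lama1, Lama2 and Lama5 were called in opposite directions in different tissues. The 13 members called in no tissue for LPS against mock were Adamts19, Col16a1, Col19a1, Col4a3, Col4a4, Col4a5, Col5a1, Col5a3, Col7a1, Col9a2, Lama3, Lamc3 and Mmp9. Of these, Col7a1 was at the floor on all 9 brain arrays, and Lama3 on all 9 brain arrays and on all 3 mock kidney arrays. The counts in this paragraph were not made for all genes, so they describe the members and cannot show whether such numbers are unusual.

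**Figure D1:**
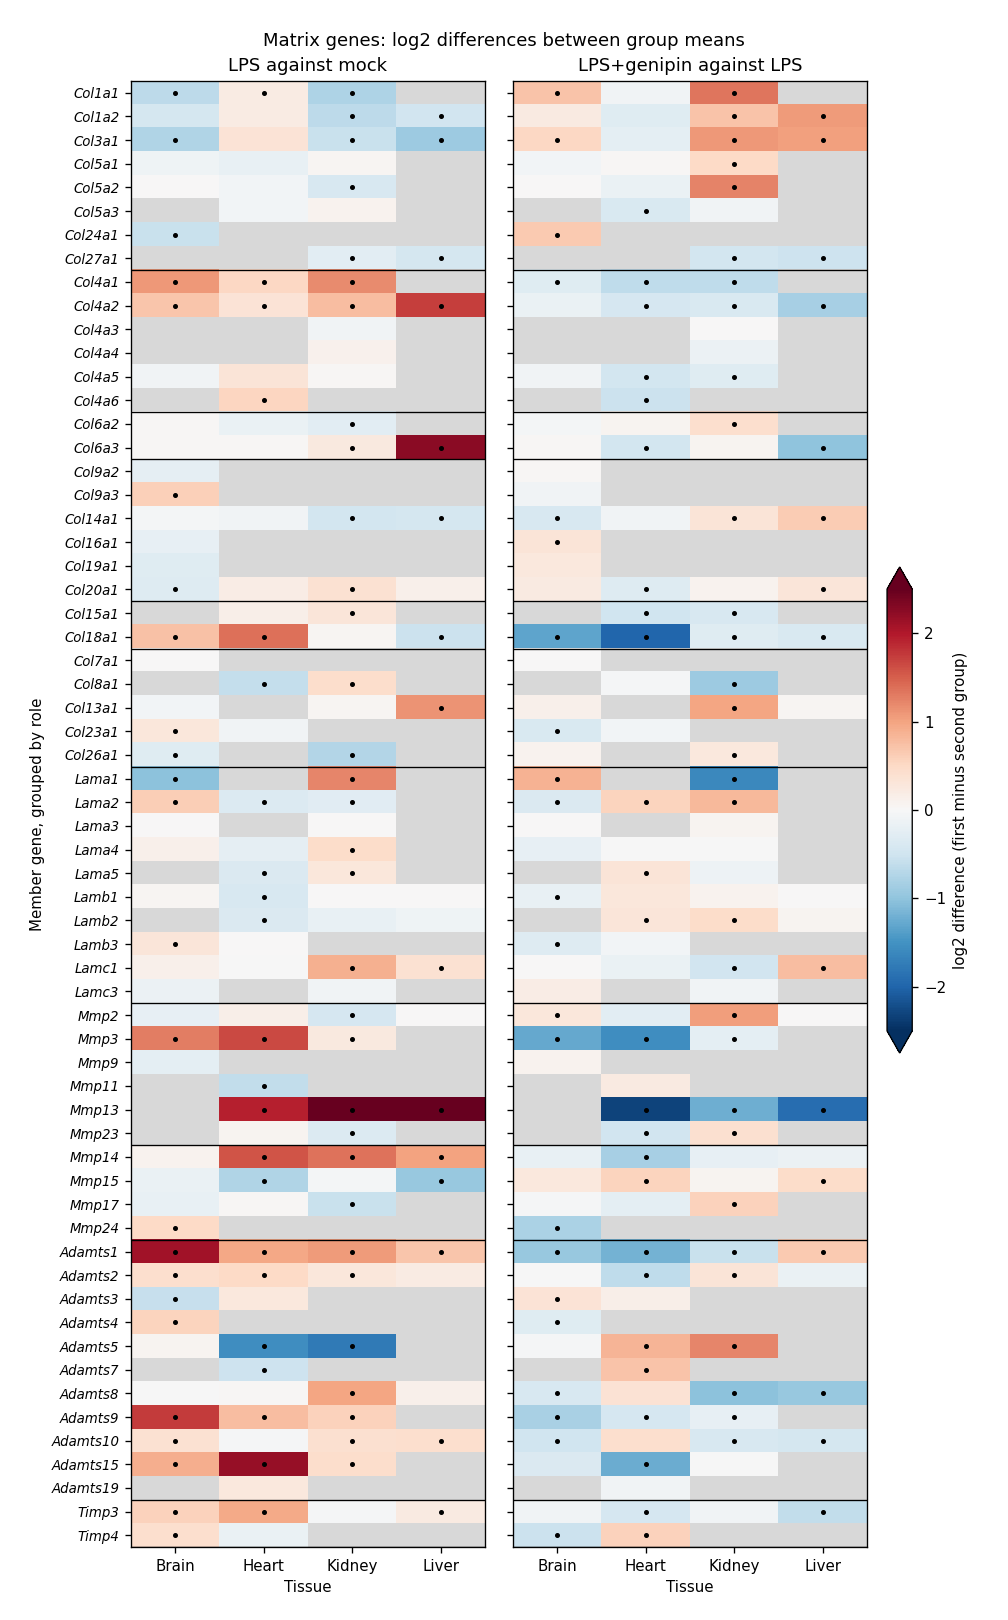
Each row is a member gene, grouped by role between the horizontal lines, and each column a tissue; colour gives the log2 difference of group means for LPS against mock (left) and LPS+genipin against LPS (right), on a scale limited to 2.5 in either direction. Dots mark adjusted p under 0.05 and grey marks a gene not measured in that tissue; in the left panel Mmp13, Adamts1, Adamts9, Adamts15, Col4a1 and Col4a2 are red wherever they were measured.

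Members were also compared between LPS+genipin and LPS, and between LPS+genipin and mock. These comparisons share the LPS or the mock arrays with the first one, so the values are set side by side below and no likeness between them is drawn as a result. Against LPS, 7 of 48 members were higher and 15 lower in brain, where 16.3% of all genes were called higher and 13.8% lower. In heart 7 of 45 were higher and 18 lower (all genes 22.1% and 19.9%), in kidney 16 and 15 of 45 (32.2% and 22.7%), and in liver 7 and 8 of 21 (29.3% and 24.7%). The shares called in either direction were 45.8%, 55.6%, 68.9% and 71.4% of members in brain, heart, kidney and liver, beside 30.2%, 41.9%, 54.8% and 54% of all genes. Against mock, the LPS+genipin arrays differed in 13 members in brain (9 higher, 4 lower), 13 in heart (5 and 8), 26 in kidney (19 and 7) and 14 in liver (9 and 5), with 14.5%, 19.7%, 44.3% and 60.3% of all genes called. Split by direction, all genes gave 8.86% higher and 5.65% lower in brain, 7.47% and 12.2% in heart, 20.1% and 24.2% in kidney, and 28.2% and 32.2% in liver. Requiring a difference of at least 2-fold as well left 5, 6, 6 and 5 members in brain, heart, kidney and liver for LPS against mock (2.4%, 7.17%, 8.43% and 15.6% of all genes), 2, 5, 8 and 4 for LPS+genipin against LPS (1.63%, 4.97%, 4.58% and 8.34%) and 1, 0, 3 and 4 for LPS+genipin against mock (1.35%, 1.61%, 3.34% and 10.5%). Differences below are in log2 units, the first-named group minus the second, with the standard error (SE) of the fit, n = 3 arrays per group, and adjusted p-values from limma.

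Of the type IV collagens, whose chains assemble into the basement membrane network, the alpha 1 and alpha 2 chains rose with LPS in each tissue that measured them. Col4a1 had intensities of 2195, 2184 and 2315 on the mock brain arrays, 4247, 5084 and 4977 with LPS and 3881, 3945 and 3667 with LPS+genipin. In kidney its mock arrays read 14990, 15350 and 15440, its LPS arrays 34880, 36820 and 32900 and its LPS+genipin arrays 22680, 20510 and 24070. In both tissues every LPS array lay above every mock array, with the LPS+genipin arrays between them. The differences between LPS and mock were 1.09 ± 0.07 (adjusted p = 3.39e-05) in brain, 0.52 ± 0.06 (adjusted p = 0.000146) in heart and 1.19 ± 0.07 (adjusted p = 2.2e-06) in kidney. LPS+genipin against LPS gave -0.31 ± 0.07, -0.63 ± 0.06 and -0.64 ± 0.07, all 3 past the threshold. Heart was the tissue in which Col4a1 did not differ between LPS+genipin and mock by the test (-0.11 ± 0.06, adjusted p = 0.209), against 0.78 ± 0.07 in brain and 0.55 ± 0.07 in kidney, both past it.

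Col4a2, whose start lies beside that of Col4a1 in the shared sequence above, was one of only 2 members called in all 4 tissues, along with Adamts1. Its largest change was in liver, where Col4a1 was not measured: the mock arrays read 2176, 2183 and 2050, the LPS arrays 7321, 7430 and 6591 and the LPS+genipin arrays 4015, 3939 and 4116. The 3 groups did not overlap there. LPS against mock was 1.73 ± 0.06 (adjusted p = 1.15e-07) in liver, 0.77 ± 0.05 in kidney, 0.70 ± 0.07 in brain and 0.34 ± 0.05 in heart. The heart value is a low estimate, since 1 LPS array was above the saturation level of 60000. LPS+genipin against LPS was -0.82 ± 0.06 (adjusted p = 1.9e-05) in liver, -0.43 ± 0.05 in heart and -0.38 ± 0.05 in kidney, all called, and -0.17 ± 0.07 (adjusted p = 0.0976) in brain, which was not.

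The other type IV chains gave a different picture. Col4a3 and Col4a4, chains of the mature glomerular basement membrane, were measured in kidney only and differed little, by -0.10 ± 0.07 (adjusted p = 0.245) and 0.10 ± 0.07 (adjusted p = 0.238). Col4a5, the third chain of that network, was not called with LPS in brain, heart or kidney, but was lower with LPS+genipin than with LPS in heart (-0.46 ± 0.13, adjusted p = 0.0219) and kidney (-0.31 ± 0.08, adjusted p = 0.0101). Col4a6 was measured only in heart, at the floor on all mock and all LPS+genipin arrays and at 409, 364 and 368 with LPS, so it was at least 1.45-fold higher with LPS (adjusted p = 0.000142). It may have counted as measured only through its LPS arrays. Endothelial cells are a main source of the alpha 1 and alpha 2 chains. The 8 endothelial markers were lower with LPS in sum: 12240 to 13580 against 15130 to 16640 in brain, 33590 to 35910 against 64480 to 71130 in heart, 24030 to 24600 against 39390 to 41420 in kidney, and 8532 to 9011 against 17430 to 18430 in liver, none of them at the floor throughout. In brain the median log2 intensity of these markers overlapped between groups, at 10.11 to 10.27 with LPS and 10.24 to 10.34 in mock. The lower brain sum is thus no clear fall of the whole list. The part of these markers in the type IV values was not tested.

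Col18a1, a multiplexin of vascular and epithelial basement membranes whose end piece is endostatin, took a different direction by tissue. In heart its intensities were 2449, 2349 and 2070 in mock, 6159, 6316 and 5278 with LPS and 1404, 1402 and 1670 with LPS+genipin. The LPS arrays were the highest and the LPS+genipin arrays fell below the mock arrays, with no overlap. The differences in heart were 1.37 ± 0.11 (adjusted p = 2.21e-05) for LPS against mock, -1.99 ± 0.11 (adjusted p = 4.46e-06) for LPS+genipin against LPS and -0.62 ± 0.11 (adjusted p = 0.00573) for LPS+genipin against mock. Brain showed the same order of groups, with 0.74 ± 0.08, -1.31 ± 0.08 and -0.57 ± 0.08 for the same 3 comparisons, all called. In liver, where the probe was bright, mock read 30990, 28710 and 32360, LPS 24280, 20110 and 19260 and LPS+genipin 14100, 15540 and 19110. There it fell with LPS (-0.54 ± 0.13, adjusted p = 0.00676) and was lower again with LPS+genipin (-0.39 ± 0.13, adjusted p = 0.034). Kidney gave 0.04 ± 0.07 (adjusted p = 0.618) with LPS, not called, and -0.30 ± 0.07 (adjusted p = 0.0058) for LPS+genipin against LPS. Col15a1, the other multiplexin, rose with LPS in kidney (0.31 ± 0.08, adjusted p = 0.00832) and was not called in heart (0.14 ± 0.06, adjusted p = 0.0758). It was lower with LPS+genipin than with LPS in both tissues (-0.40 ± 0.08 in kidney and -0.49 ± 0.06 in heart).

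**Figure D2:**
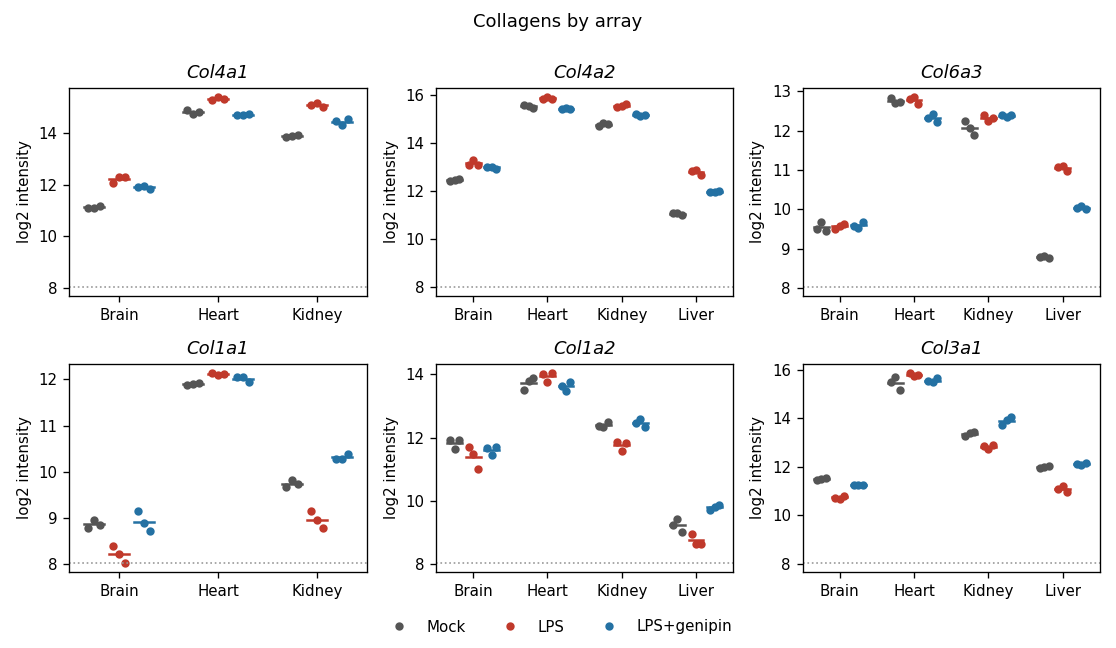
Log2 intensity of 6 collagens on every array (points; horizontal bars are the means of 3 arrays) by tissue and treatment, with the floor as a dotted line and a separate y-axis range in each panel. Col4a1 and Col4a2 are highest with LPS in each tissue shown, Col6a3 is raised mainly in liver, and Col1a1, Col1a2 and Col3a1 are lowest with LPS in kidney, where LPS+genipin arrays lie above LPS arrays.

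Collagen VI, a beaded-filament collagen around cells, showed the second largest rise of any member in liver. Col6a3 had 442, 448 and 437 on the mock liver arrays, 2140, 2180 and 2027 with LPS and 1044, 1087 and 1027 with LPS+genipin. The 3 groups did not overlap. With LPS the difference from mock was 2.26 ± 0.05 (adjusted p = 8.35e-09), a 4.78-fold difference, LPS+genipin against LPS was -1.01 ± 0.05 (adjusted p = 2.09e-06), and LPS+genipin against mock was 1.25 ± 0.05 (adjusted p = 3.35e-07). Elsewhere Col6a3 changed little with LPS, by 0.02 ± 0.07 in brain, 0.04 ± 0.08 in heart and 0.25 ± 0.08 (adjusted p = 0.0283) in kidney, the last one called. Col6a2 was lower with LPS in kidney (-0.25 ± 0.06, adjusted p = 0.00782) and higher with LPS+genipin than with LPS there (0.43 ± 0.06, adjusted p = 0.000773). It was not called in brain, where most of its arrays were at the floor, or in heart.

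Fibrillar collagens, the bulk of connective tissue, were lower with LPS or not called outside the heart. Of the measured fibrillar genes, 3 of 6 were lower in brain, 5 of 7 in kidney and 3 of 3 in liver, with none higher, while heart had 1 of 6 higher and none lower. Their median differences were -0.49, -0.40 and -0.48 in brain, kidney and liver and 0.07 in heart, against all-gene medians of 0.00, -0.09, -0.03 and -0.06. The share of all genes called lower was 17.5% in brain, 39.1% in kidney and 36.8% in liver, and called higher 16.4%, 25.3% and 29.3%. In heart 18.2% of all genes were called higher and 28.9% lower, and the 1 of 6 higher there lies near the all-gene share.

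In kidney the chains of collagens I, III and V that passed the test were all lower with LPS. Col1a1, the alpha 1 chain of type I collagen, read 818, 911 and 848 in mock kidney, 572, 496 and 442 with LPS and 1237, 1235 and 1349 with LPS+genipin. Col3a1, the single chain of type III collagen, read 9994, 10830 and 10960 in mock, 7324, 6757 and 7585 with LPS and 13610, 15510 and 17140 with LPS+genipin. For both genes the LPS arrays were the lowest and the LPS+genipin arrays the highest, without overlap. The differences for Col1a1 were -0.78 ± 0.09 (adjusted p = 0.000177), 1.35 ± 0.09 (adjusted p = 1.7e-05) and, against mock, 0.57 ± 0.09 (adjusted p = 0.00188). Col3a1 gave -0.55 ± 0.09 (adjusted p = 0.000832), 1.09 ± 0.09 (adjusted p = 3.52e-05) and 0.54 ± 0.09 (adjusted p = 0.00183). Col1a2, which completes the type I trimer, gave -0.65 ± 0.09 (adjusted p = 0.000522) and 0.71 ± 0.09 (adjusted p = 0.000477), and did not differ from mock with LPS+genipin by the test (0.06 ± 0.09, adjusted p = 0.65). Col5a2, a type V chain that helps to set fibril width, was faint, at 354, 350 and 356 in mock and at the floor on 2 of 3 LPS arrays, and reached 594, 626 and 694 with LPS+genipin. Its fitted difference from LPS, 1.25 ± 0.06 (adjusted p = 2.48e-06), is set in part by the floor. Col5a2 lies directly beside Col3a1 on chromosome 1, with 0 protein-coding genes between them in RefSeq.

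The kidney rise with LPS+genipin came with higher fibroblast markers, whose summed intensity on those arrays is given above. Skeletal muscle markers (2 of 5 measured) were also higher there, summing to 3691 to 3881 against 942.9 to 1049 with LPS and 749.7 to 905.7 in mock. Their part in the rise was not tested.

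In liver Col3a1 read 3976, 4072 and 4218 in mock, 2168, 2345 and 2015 with LPS and 4400, 4341 and 4602 with LPS+genipin. The LPS arrays were lowest, and the LPS+genipin arrays lay above all mock arrays, a difference that missed the threshold (0.12 ± 0.06, adjusted p = 0.129). LPS against mock was -0.91 ± 0.06 (adjusted p = 6.18e-06) and LPS+genipin against LPS 1.03 ± 0.06 (adjusted p = 9.31e-06). Col1a2 behaved alike, with -0.48 ± 0.13 (adjusted p = 0.0106) and 1.06 ± 0.13 (adjusted p = 0.000293), and it also exceeded mock with LPS+genipin (0.58 ± 0.13, adjusted p = 0.00447). Fibroblast markers (3 of 7 measured) summed to 2036 to 2099 in mock liver, 948.9 to 1108 with LPS, where Dpt was at the floor throughout, and 1370 to 1570 with LPS+genipin, and their part was not tested. Col27a1, a fibrillar collagen of cartilage, was lower with LPS in liver (-0.44 ± 0.16, adjusted p = 0.0406) and in kidney (-0.26 ± 0.06, adjusted p = 0.00552). It was lower again with LPS+genipin, reaching -0.72 ± 0.06 (adjusted p = 4.52e-05) against mock in kidney. The liver call for LPS against mock was lost with the replicate block, with a floor at the 10th percentile, without any 1 of the 3 mock arrays, without LPS array 3 and without LPS+genipin array 2, with adjusted p from 0.0296 to 0.106 over its alternatives. Of 5 cartilage markers, 1 was measured in liver, Cnmd, at 3867 to 4309 in mock, 265.6 to 465.1 with LPS and 422.6 to 560.3 with LPS+genipin, and its part was not tested.

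Brain had the same direction for Col3a1 and Col1a1. Col3a1 intensities were 2775, 2851 and 2988 in mock, 1694, 1644 and 1765 with LPS and 2435, 2426 and 2409 with LPS+genipin. All LPS arrays were lowest and the LPS+genipin arrays stayed below mock. The differences were -0.76 ± 0.05 (adjusted p = 1.83e-05), 0.51 ± 0.05 (adjusted p = 0.00021) and -0.24 ± 0.05 (adjusted p = 0.0106). Col1a1 was near the floor, at 443, 501 and 465 in mock, while with LPS 1 of 3 arrays was at the floor and the others read 338 and 298. It differed by -0.66 ± 0.13 (adjusted p = 0.00598) for LPS against mock and 0.70 ± 0.13 (adjusted p = 0.0051) for LPS+genipin against LPS. Col24a1 was at the floor on all LPS brain arrays against 406, 385 and 366 in mock and 384, 419 and 436 with LPS+genipin, so it was at least 1.47-fold lower than mock (adjusted p = 0.000401). Col1a2 was not called in brain (-0.44 ± 0.17, adjusted p = 0.086). The skeletal muscle and choroid plexus marker values given above differ between the same brain groups, and their part in these changes was not tested. In heart Col1a1 rose slightly with LPS (0.21 ± 0.05, adjusted p = 0.00948), and Col1a2 and Col3a1 gave 0.21 ± 0.12 (adjusted p = 0.195) and 0.34 ± 0.13 (adjusted p = 0.0565), neither called. Of the other type V chains, Col5a1 was higher with LPS+genipin than with LPS in kidney (0.50 ± 0.15, adjusted p = 0.023) and Col5a3 lower in heart (-0.39 ± 0.11, adjusted p = 0.0194), and neither was called with LPS.

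The fibril-associated and remaining collagens changed in scattered ways. Col14a1, which sits on the surface of fibrils, was lower with LPS in kidney (-0.47 ± 0.10, adjusted p = 0.00445) and liver (-0.44 ± 0.10, adjusted p = 0.00499), and higher with LPS+genipin than with LPS in both, by 0.32 ± 0.10 and 0.63 ± 0.10. Its mock liver arrays read 556, 695 and 583 and its LPS liver arrays 493, 428 and 430, with no overlap. Col20a1 fell in brain (-0.32 ± 0.09, adjusted p = 0.0227) and rose in kidney (0.38 ± 0.09, adjusted p = 0.00626). The brain call was lost with the replicate block, without mock array 2 or 3 and without LPS array 1 or 2, with adjusted p from 0.0149 to 0.0801 over its alternatives. Col9a3, a cartilage collagen chain measured only in brain, rose there (0.60 ± 0.09, adjusted p = 0.00233), and its partner chain Col9a2 was not called (-0.22 ± 0.13, adjusted p = 0.22). Col16a1 and Col19a1 were measured only in brain and not called with LPS. Col16a1 was higher with LPS+genipin than with LPS (0.33 ± 0.08, adjusted p = 0.0182).

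Col13a1, a collagen that spans the plasma membrane, rose in liver from 560, 522 and 622 to 1095, 1406 and 1215 with LPS and stood at 1236, 1227 and 1344 with LPS+genipin. Both treated groups lay above mock and overlapped each other. For LPS against mock the difference was 1.12 ± 0.10 (adjusted p = 3.32e-05) and LPS+genipin against LPS 0.04 ± 0.10 (adjusted p = 0.769). In kidney Col13a1 was higher only on the LPS+genipin arrays, at 652, 680 and 717 against 366, 346 and 318 with LPS (0.99 ± 0.07, adjusted p = 1.26e-05). Col26a1 was at the floor on all LPS kidney arrays, against 452, 407 and 446 in mock, and thus at least 1.65-fold lower (adjusted p = 4.32e-06). It was also at the floor on all LPS brain arrays (at least 1.24-fold lower, adjusted p = 0.00339). Col23a1 rose slightly in brain (0.28 ± 0.07, adjusted p = 0.0156) and was not called in heart, where another probe read it.

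Col8a1, a short-chain collagen of vessel walls, fell in heart from 6282, 6090 and 5931 to 4000, 4288 and 3774 with LPS, and read 3930, 4003 and 3838 with LPS+genipin. In kidney it rose from 5302, 5258 and 5320 to 6980, 7325 and 7249 and was 3787, 3630 and 4132 with LPS+genipin. Neither tissue had an overlap between LPS and mock, and the directions were opposite. The differences were -0.60 ± 0.06 (adjusted p = 9.88e-05) in heart and 0.44 ± 0.05 (adjusted p = 0.000133) in kidney, and LPS+genipin against LPS gave -0.03 ± 0.06 (adjusted p = 0.698) in heart and -0.90 ± 0.05 (adjusted p = 5.67e-06) in kidney.

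Among the laminin chains, kidney and brain moved Lama1 in opposite directions. Lama1 codes for the alpha chain of the laminin first found in embryos, which persists in kidney tubule basement membranes. Kidney intensities were 1597, 1769 and 1700 in mock, 3878, 4176 and 3717 with LPS and 1228, 1325 and 1272 with LPS+genipin. Brain intensities were 868, 760 and 746 in mock, 422, 445 and 310 with LPS and 817, 740 and 584 with LPS+genipin. The LPS arrays were the highest in kidney and the lowest in brain. Against mock, LPS gave 1.22 ± 0.06 (adjusted p = 1.04e-06) in kidney and -1.03 ± 0.17 (adjusted p = 0.00269) in brain, and LPS+genipin against LPS was -1.62 ± 0.06 (adjusted p = 8.43e-07) and 0.87 ± 0.17 (adjusted p = 0.00659). Against mock, the LPS+genipin kidneys were lower (-0.40 ± 0.06, adjusted p = 0.000983), and in brain that difference missed the threshold (-0.16 ± 0.17, adjusted p = 0.586). The LPS brain arrays are also those with the low choroid plexus and meninges sum, whose part in the brain value was not tested.

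Lama2, the alpha chain of muscle and Schwann cell basement membranes, rose with LPS in brain (0.62 ± 0.09, adjusted p = 0.00142) and fell in heart (-0.34 ± 0.11, adjusted p = 0.0298) and kidney (-0.28 ± 0.08, adjusted p = 0.0135). Its kidney arrays read 799, 897 and 840 in mock, 681, 742 and 662 with LPS and 1248, 1323 and 1109 with LPS+genipin, the last group being the highest (0.82 ± 0.08, adjusted p = 8.39e-05 against LPS). Lama5, an alpha chain of mature vascular and epithelial membranes, fell in heart (-0.35 ± 0.07, adjusted p = 0.00379) and rose in kidney (0.29 ± 0.06, adjusted p = 0.00269). Heart had 4 of 7 measured laminin chains lower with LPS and none higher: Lama2, Lama5, Lamb1 and Lamb2, by 0.34 to 0.40 in log2 units. In heart 28.9% of all genes were called lower. The Lamb1 call in heart was lost with the replicate block, without mock array 2 or 3 and without LPS array 2 or 3, with adjusted p from 0.00159 to 0.0757 over its alternatives.

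Kidney had 4 of 9 laminins higher, Lama1, Lama4, Lama5 and Lamc1, and 1 lower, Lama2, where 25.3% of all genes were called higher and 39.1% lower. Lamc1, the gamma chain found in most laminins, rose in kidney from 3028, 2911 and 3307 to 6166, 5374 and 5583 (0.89 ± 0.14, adjusted p = 0.000941). In liver it was at the floor on all mock arrays and read 350, 363 and 310 with LPS and 542, 611 and 581 with LPS+genipin. It may have counted as measured there only through its treated arrays. The LPS arrays were thus at least 1.29-fold above mock (adjusted p = 0.002), and the LPS+genipin arrays were higher again than LPS (0.76 ± 0.07, adjusted p = 7.59e-05). Lama4, an alpha chain of vessel walls, rose in kidney (0.45 ± 0.06, adjusted p = 0.000478) and was not called in brain or heart. Lamb3 rose in brain, where it was near the floor (0.30 ± 0.07, adjusted p = 0.013). Lamb2 was higher with LPS+genipin than with LPS in heart (0.31 ± 0.09, adjusted p = 0.0309) and kidney (0.45 ± 0.08, adjusted p = 0.0015). With LPS, Lamc3 and Lamb1 were not called in brain or kidney, and Lamb1 was at the floor on all 9 liver arrays.

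**Figure D3:**
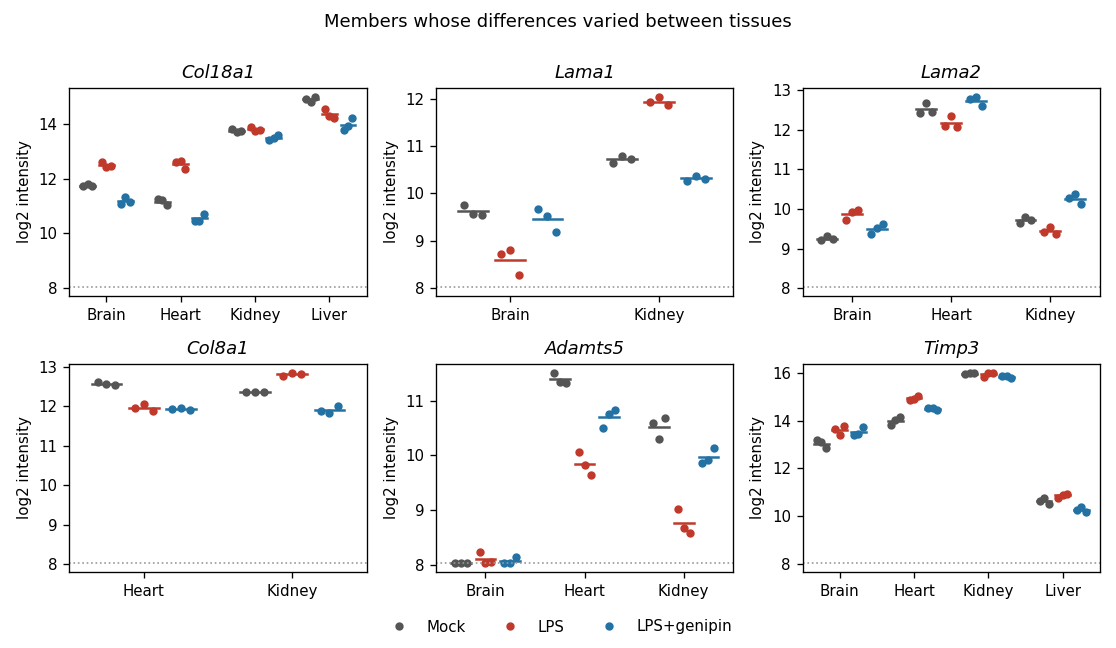
Log2 intensity on every array (points; horizontal bars are the means of 3 arrays) for 6 members, by tissue and treatment, with the floor as a dotted line and a separate y-axis range in each panel. Col18a1, Lama1, Lama2 and Col8a1 differ between LPS and mock in opposite directions in at least 2 of the tissues shown, Adamts5 is lowest with LPS in heart and kidney, and Timp3 is near the top of the scale in kidney.

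The largest measured rises with LPS in kidney and liver were those of a secreted MMP. Mmp13, the main interstitial collagenase of rodents, had 335, 344 and 268 on the mock kidney arrays, 1931, 1921 and 2113 with LPS and 865, 956 and 763 with LPS+genipin. In liver the values were 267, 266 and 275 in mock, 1695, 1697 and 1534 with LPS and 468, 439 and 412 with LPS+genipin. In heart they were 386, 487 and 558 in mock, 1996, 1571 and 1941 with LPS and 398, 324 and 391 with LPS+genipin. Mock and LPS arrays were far apart in each tissue, with the mock liver arrays just above the floor. Differences between LPS and mock reached 2.66 ± 0.11 (adjusted p = 5.3e-07) in kidney, 2.61 ± 0.06 (adjusted p = 2.23e-08) in liver and 1.95 ± 0.16 (adjusted p = 2.66e-05) in heart, or 6.33-fold, 6.09-fold and 3.87-fold. These values understate any change whose mock level lay near the floor.

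With LPS+genipin Mmp13 was lower than with LPS in the 3 tissues, with differences of -2.30 ± 0.16 (adjusted p = 1.74e-05) in heart, -1.21 ± 0.11 (adjusted p = 7.72e-05) in kidney and -1.90 ± 0.06 (adjusted p = 5.28e-07) in liver. In heart the LPS+genipin and mock arrays overlapped and the difference missed the threshold (-0.35 ± 0.16, adjusted p = 0.153), whereas kidney (1.45 ± 0.11, adjusted p = 3.62e-05) and liver (0.70 ± 0.06, adjusted p = 3.83e-05) stayed above mock. Mmp13 was not measured in brain.

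Mmp3, stromelysin-1, which cuts laminin, type IV collagen and proteoglycans and lies near Mmp13 on chromosome 9 with 2 protein-coding genes between them, was at the floor on all mock arrays of brain, heart and kidney. With LPS it read 547, 696 and 686 in brain, 736, 880 and 865 in heart and 271, 330 and 343 in kidney. It was therefore at least 2.43-fold higher in brain (adjusted p = 3.48e-05), at least 3.14-fold higher in heart (adjusted p = 4.96e-06) and at least 1.19-fold higher in kidney (adjusted p = 0.024). With LPS+genipin it was back at the floor on all 3 arrays in brain and kidney and on 2 of 3 in heart. The windows of Mmp3 and Mmp13 above hold both an AP-1 and a TATA match, and that of Adamts1 holds a TATA match without AP-1. The part of these matches in the rises was not tested.

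The gelatinases behaved otherwise. Mmp2, made by fibroblasts, was lower with LPS in kidney, at 1111, 1224 and 1107 against 1556, 1424 and 1595 in mock (-0.41 ± 0.07, adjusted p = 0.00103), and reached 2413, 2516 and 2223 with LPS+genipin, above both (1.05 ± 0.07, adjusted p = 1.13e-05 against LPS). It was not called with LPS in brain or heart, and in liver it was at the floor on all mock and LPS arrays. Mmp9, carried by neutrophils among other cells, was measured only in brain, was faint and was not called (-0.24 ± 0.10, adjusted p = 0.105). In those brains 4 of 6 neutrophil markers were measured, and they summed to 1954 to 2008 in mock, 3638 to 4118 with LPS and 4256 to 4321 with LPS+genipin. In the other tissues the measured markers summed to 39890 to 45110 with LPS against 2284 to 2488 in mock in heart (3 of 6), to 4372 to 6317 against 248.1 to 362.8 in kidney (1 of 6) and to 80910 to 86200 against 3598 to 3856 in liver (2 of 6). Mmp11, stromelysin-3, was measured in heart only and fell from 552, 478 and 563 to 348, 321 and 364 (-0.62 ± 0.09, adjusted p = 0.000958). Mmp23 fell in kidney (-0.34 ± 0.12, adjusted p = 0.0326) and was not called in heart with LPS.

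**Figure D4:**
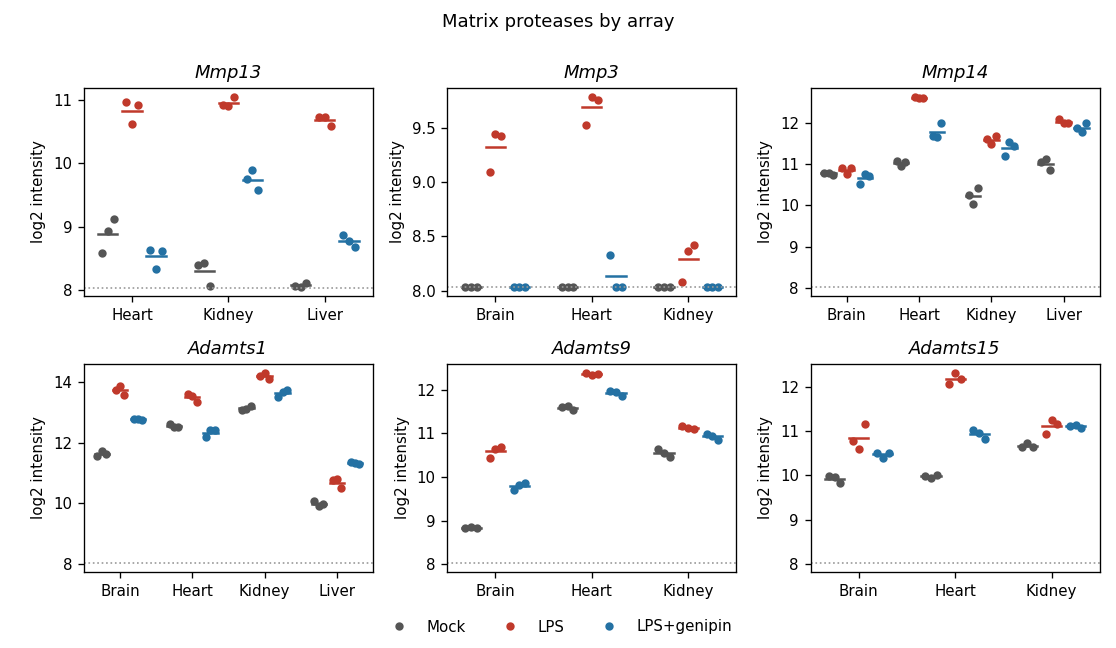
Log2 intensity on every array (points; horizontal bars are the means of 3 arrays) for 6 proteases, by tissue and treatment, with the floor as a dotted line and a separate y-axis range in each panel. LPS arrays lie above mock arrays in each panel and tissue except for Mmp14 in brain, and LPS+genipin arrays lie below LPS arrays for Mmp13 and Mmp3 in each tissue shown but above them for Adamts1 in liver.

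Of the membrane-type enzymes, Mmp14, which cuts fibrillar collagen at the cell surface and activates pro-MMP2, rose in 3 of 4 tissues. Heart arrays read 2154, 1995 and 2115 in mock, 6292, 6170 and 6222 with LPS and 3269, 3203 and 4094 with LPS+genipin. Kidney arrays read 1230, 1047 and 1374 in mock, 3128, 2861 and 3274 with LPS and 2359, 2956 and 2788 with LPS+genipin. In both tissues LPS arrays lay above all mock arrays, and only in heart were the LPS+genipin arrays below LPS without overlap. Mmp14 differed between LPS and mock by 1.58 ± 0.09 (adjusted p = 4.74e-06) in heart, 1.35 ± 0.12 (adjusted p = 3.01e-05) in kidney and 1.01 ± 0.08 (adjusted p = 1.54e-05) in liver, and in brain it was not called (0.08 ± 0.07, adjusted p = 0.401). LPS+genipin against LPS was -0.83 ± 0.09 (adjusted p = 0.000261) in heart. In kidney (-0.20 ± 0.12, adjusted p = 0.194) and liver (-0.14 ± 0.08, adjusted p = 0.174) that difference missed the threshold, and both tissues stayed above mock, by 1.15 ± 0.12 and 0.87 ± 0.08.

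Mmp15, a related membrane enzyme, moved the other way. In heart it was 1641, 1802 and 1996 in mock, 994, 1174 and 1078 with LPS and 1653, 1662 and 1475 with LPS+genipin. In liver it was 633, 602 and 597 in mock, 280, 367 and 314 with LPS and 420, 462 and 438 with LPS+genipin. LPS arrays were the lowest in both. The differences were -0.74 ± 0.10 (adjusted p = 0.000391) and -0.94 ± 0.09 (adjusted p = 6.02e-05) for LPS against mock, and 0.56 ± 0.10 (adjusted p = 0.00218) and 0.47 ± 0.09 (adjusted p = 0.0044) for LPS+genipin against LPS. Mmp17, which is anchored by a lipid tail, fell in kidney (-0.55 ± 0.07, adjusted p = 0.000311) and was not called in brain or heart. Mmp24, an enzyme mainly of neurons, was measured only in brain, where it rose with LPS (0.50 ± 0.13, adjusted p = 0.02) and was lower with LPS+genipin than with LPS (-0.79 ± 0.13, adjusted p = 0.00326).

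ADAMTS genes rose more often than they fell. With LPS, 6 of 9 measured were higher in brain, 4 of 10 in heart, 6 of 7 in kidney and 2 of 4 in liver, and 1, 2, 1 and 0 were lower. The share of all genes called higher was 16.4% for brain, 18.2% for heart, 25.3% for kidney and 29.3% for liver. For genes called lower it was 17.5%, 28.9%, 39.1% and 36.8%. The medians of the group were 0.43, 0.27, 0.44 and 0.31, against all-gene medians of 0.00, -0.06, -0.09 and -0.03.

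Adamts1, a versican-cutting enzyme, was the other member called in all 4 tissues. In brain it went from 3024, 3422 and 3133 in mock to 13780, 14920 and 12310 with LPS, and stood at 7114, 7052 and 6911 with LPS+genipin. In liver it read 1068, 962 and 1015 in mock, 1725, 1782 and 1440 with LPS and 2657, 2583 and 2494 with LPS+genipin. Brain had the LPS+genipin arrays between mock and LPS, and liver had them above LPS, with no overlap in either. Adamts1 differed between LPS and mock by 2.10 ± 0.08 (adjusted p = 1.21e-06) in brain, a 4.27-fold difference and the largest measured rise of any member there, where Mmp3 has only a bound, with 0.96 ± 0.09 in heart, 1.06 ± 0.08 in kidney and 0.70 ± 0.08 in liver. LPS+genipin against LPS was -0.96 ± 0.08 in brain, -1.17 ± 0.09 (adjusted p = 4.32e-05) in heart, -0.55 ± 0.08 in kidney and 0.65 ± 0.08 (adjusted p = 0.000488) in liver, all called. Against mock it was not called in heart (-0.21 ± 0.09, adjusted p = 0.156), and was higher by 1.14 ± 0.08 in brain, 0.51 ± 0.08 in kidney and 1.35 ± 0.08 in liver.

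Adamts9 and Adamts15, enzymes of the same versican-cutting branch, also rose in brain, heart and kidney. Adamts9 read 457, 464 and 452 in mock brain and 1394, 1606 and 1639 with LPS, and 828, 902 and 926 with LPS+genipin. Its LPS differences were 1.75 ± 0.07 (adjusted p = 1.84e-06) in brain, 0.76 ± 0.06 in heart and 0.58 ± 0.05 in kidney, and LPS+genipin against LPS gave -0.80 ± 0.07, -0.43 ± 0.06 and -0.20 ± 0.05, all called. Adamts15 read 1013, 987 and 1039 in mock heart, 4247, 5037 and 4576 with LPS and 2072, 1984 and 1811 with LPS+genipin, the largest measured rise of any member in heart, where Mmp3 has only a bound. It differed by 2.19 ± 0.08 (adjusted p = 2.3e-07) there, by 0.91 ± 0.13 in brain and by 0.44 ± 0.08 in kidney. It was lower with LPS+genipin than with LPS in heart (-1.24 ± 0.08, adjusted p = 1.23e-05), and in brain (-0.36 ± 0.13, adjusted p = 0.0741) and kidney (-0.01 ± 0.08, adjusted p = 0.971) that difference was not called. The LPS heart arrays are also those with the high atrial and adipocyte markers given above, whose part in the heart values of these proteases and of Col18a1 was not tested.

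Adamts5, the main aggrecan-cutting enzyme of mouse cartilage, showed the largest measured falls of any member with LPS, in heart and kidney. It lies directly beside Adamts1 on chromosome 16, with 0 protein-coding genes between them, and moved the opposite way in those tissues. Heart arrays read 2902, 2607 and 2559 in mock, 1069, 906 and 797 with LPS and 1447, 1736 and 1823 with LPS+genipin. Kidney arrays read 1544, 1257 and 1639 in mock, 519, 407 and 383 with LPS and 930, 965 and 1131 with LPS+genipin. LPS arrays were lowest in both tissues, LPS+genipin arrays came between, and no groups overlapped. The differences were -1.55 ± 0.13 (adjusted p = 3.05e-05) and -1.77 ± 0.14 (adjusted p = 2.04e-05) for LPS against mock, and 0.86 ± 0.13 (adjusted p = 0.00109) and 1.22 ± 0.14 (adjusted p = 0.000263) for LPS+genipin against LPS. It stayed below mock with LPS+genipin (-0.69 ± 0.13 in heart and -0.55 ± 0.14 in kidney). In brain it was at the floor on all mock arrays.

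The remaining ADAMTS genes changed less. Adamts4, another aggrecan-cutting enzyme, measured only in brain, rose there (0.55 ± 0.05, adjusted p = 0.000257). Adamts8, the neighbour of Adamts15 on chromosome 9, rose in kidney from 657, 603 and 501 to 1236, 1144 and 1081 (0.98 ± 0.10, adjusted p = 5.97e-05) and was back at 561, 553 and 580 with LPS+genipin (-1.03 ± 0.10, adjusted p = 7.98e-05). In liver Adamts8, read by another probe, was lower with LPS+genipin than with LPS (-0.95 ± 0.28, adjusted p = 0.0212), a call lost without LPS array 3 or without LPS+genipin array 2 or 3, with adjusted p from 0.0115 to 0.0727 over its alternatives. Adamts2, which trims procollagens, rose in brain, heart and kidney by 0.43 ± 0.08, 0.50 ± 0.07 and 0.28 ± 0.07. Adamts3, of the same kind, fell in brain (-0.57 ± 0.11, adjusted p = 0.00545). Adamts10, which binds fibrillin, rose in brain, kidney and liver by 0.38 ± 0.11, 0.39 ± 0.10 and 0.42 ± 0.11, and was lower with LPS+genipin than with LPS in the same 3 tissues. Adamts7, measured only in heart, fell with LPS from 1063, 1013 and 1083 to 766, 764 and 683 (-0.52 ± 0.08, adjusted p = 0.00138) and stood at 1081, 1287 and 1273 with LPS+genipin (0.72 ± 0.08, adjusted p = 0.000312). Adamts19 was measured only in heart and was not called.

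Timp3 rose with LPS in 3 of 4 tissues, and Timp4 in brain. Timp3, which is bound to the matrix and blocks ADAMTS enzymes as well as MMPs, read 14580, 16600 and 18610 in mock heart, 30500, 30920 and 33590 with LPS and 24060, 23880 and 22570 with LPS+genipin. The 3 heart groups did not overlap. Timp3 differed between LPS and mock by 0.94 ± 0.09 (adjusted p = 8.29e-05) in heart, 0.57 ± 0.13 (adjusted p = 0.0144) in brain and 0.23 ± 0.09 (adjusted p = 0.0467) in liver. LPS+genipin against LPS was -0.43 ± 0.09 (adjusted p = 0.00662) in heart and -0.61 ± 0.09 (adjusted p = 0.000848) in liver, and not called in brain (-0.08 ± 0.13, adjusted p = 0.695). In kidney all 3 mock arrays and 2 of 3 in each treated group were at or above 60000, so no fold is given there. Timp4, found mainly in heart and brain, rose in brain from 10160, 10390 and 9692 to 14010, 15180 and 11510 (0.42 ± 0.09, adjusted p = 0.0117) and stood at 9230, 9546 and 9249 with LPS+genipin. In heart it was not called with LPS and was higher with LPS+genipin than with LPS (0.58 ± 0.18, adjusted p = 0.0352), a call lost without mock array 1 or without any 1 of the LPS+genipin arrays, with adjusted p from 0.0192 to 0.0868 over its alternatives.

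Whether the LPS difference itself varied with tissue was tested for the 16 members read by the same probe in all 4 tissues. An F test over the 36 arrays called 14 of 16 for LPS against mock, against 77.1% of the 6705 genes so tested, and 16 of 16 for LPS+genipin against LPS, against 74.5%. For 4 of the 14, Lamb1, Lamc1 and Mmp2 in liver and Timp3 in kidney, at least 1 group was at the floor or saturated on all 3 arrays, so that the difference there is set by the limits of the scale. The same holds for Lamb1 and Mmp2 among the 16. Of the members without such a group, 10 of 12 and 14 of 14 were called. The exceptions for LPS against mock were Adamts2 (adjusted p = 0.121), whose 4 differences were 0.43, 0.50, 0.28 and 0.21 in brain, heart, kidney and liver, and Adamts10 (adjusted p = 0.0898). Col6a3 had the largest F value of the set, with liver at 2.26 and the other tissues at 0.25 or less. Adamts1 differed between tissues for LPS+genipin against LPS (adjusted p = 1.26e-12), with 0.65 in liver and values from -1.17 to -0.55 in the other 3. For the members called in opposite directions, the differences between tissues are given as a description, since the pairs were picked for their opposite calls. Lama1 differed by -2.24 ± 0.18 between brain and kidney in log2 units, and Col18a1 by 1.91 ± 0.17 between heart and liver.

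Other genes of the matrix gave the setting for these members. Among 22 collagen-processing enzymes and chaperones, 10 of 15 measured in kidney and 8 of 14 in liver were lower with LPS, with 2 and 1 higher, where 39.1% and 36.8% of all genes were called lower. Pcolce, which speeds the trimming of procollagen, fell in liver (-1.10 ± 0.06, adjusted p = 1.91e-06), as did the collagen-binding gene Sparc (-0.93 ± 0.05, adjusted p = 1.5e-06). With LPS+genipin against LPS, 9 of 15 were higher in kidney and none lower, with Sparc at 0.85 ± 0.07 (adjusted p = 5.19e-05), and in liver 6 of 14 were higher and 1 lower. All genes were then called higher at 32.2% in kidney and 29.3% in liver. In brain 6 of 16 were lower and 3 higher with LPS, including the prolyl hydroxylase subunit P4ha1 (-0.93 ± 0.08, adjusted p = 0.000112), and in heart 7 of 16 were lower and 2 higher, beside 17.5% and 28.9% of all genes called lower.

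Of the receptors for collagen and laminin, 6 of 8 measured in kidney were higher with LPS and none lower, where 25.3% of all genes were called higher. Sdc4, the cell-surface proteoglycan syndecan-4, rose in all 4 tissues, by 3.41 ± 0.07 in heart (adjusted p = 1.05e-08), 1.40 ± 0.05 in kidney (adjusted p = 1.14e-07), 0.97 ± 0.13 in brain (adjusted p = 0.000926) and 0.79 ± 0.05 in liver (adjusted p = 2.57e-06). Against LPS, 6 of 8 receptors were lower with LPS+genipin in kidney and none higher (all genes 22.7% lower), with the laminin receptor chain Itga6 at -0.98 ± 0.06 (adjusted p = 6.49e-06). Of the 11 other basement membrane components, 5 of 9 measured in kidney were lower with LPS and 1 higher, beside 39.1% and 25.3% of all genes. The dystroglycan gene Dag1 fell in heart (-0.63 ± 0.07), kidney (-0.58 ± 0.09) and liver (-0.63 ± 0.09).

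Among elastic fibre, fibronectin and tenascin genes, 8 of 17 measured in heart were higher with LPS and 3 lower (all genes 18.2% and 28.9%), with Mfap4 at 1.47 ± 0.08 (adjusted p = 2.38e-06), and with LPS+genipin against LPS 9 of 17 were lower and 2 higher (all genes 19.9% and 22.1%). In kidney 4 of 16 were higher and 5 lower, beside 25.3% and 39.1% of all genes, with Ltbp2, a latent TGF-beta binding protein family member, at 1.47 ± 0.23 (adjusted p = 0.000844). Of the proteoglycans measured in heart, 4 of 7 were higher and 2 lower, with Fmod higher by 1.51 ± 0.10 and Ogn at -1.14 ± 0.07, and in liver Lum fell (-1.79 ± 0.11, adjusted p = 2.85e-06). In brain 1 of 9 was called, where 33.9% of all genes were. Of the other protease regulators, Timp1, the inducible inhibitor, rose by 4.93 ± 0.11 in heart (adjusted p = 1.3e-08), and Reck, a membrane inhibitor of MMPs, fell by 1.40 on the log2 scale in kidney (adjusted p = 3.21e-06). TGF-beta signalling genes, which drive collagen synthesis, were called higher for 6 of 12 and lower for 3 in heart, 5 and 3 of 12 in kidney, 3 and 3 of 9 in liver and 3 and 2 of 11 in brain. The liver counts lie near the shares of 29.3% and 36.8% of all genes there, and all genes stood at 18.2% and 28.9% for heart, 25.3% and 39.1% for kidney and 16.4% and 17.5% for brain. With LPS+genipin against LPS, 7 of 9 were higher in liver and none lower, including the receptor Tgfbr2 at 0.96 ± 0.09 (adjusted p = 9.44e-05), while in heart 7 of 12 were lower and none higher. Of all genes, 29.3% were called higher for liver and 19.9% lower for heart.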

How the data were processed

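Each of 36 one-colour arrays measured RNA from brain, heart, kidney or liver of mock, LPS or LPS+genipin mice. The deposited intensities are linear values that the authors had normalized; the equal array medians within a tissue show that this was done tissue by tissue, and limma is named, with no role, per the submitters' processing notes. Background correction and the criterion for missing probes are unstated. Probes were named through GEO's platform annotation, with symbols updated through RefSeq. Of 18183 probes, those with 1 symbol gave 12394 genes. In each tissue a gene was read by the probe with the highest mean among its probes measured there. The tests between tissues used the same probe in every tissue. Timp2 was not analysed here. Intensities were floored at the 5th percentile (262.7) and taken to log2.

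Each tissue was fitted alone on its 9 arrays with limma 3.58.1 in R 4.3.3 (lmFit and eBayes), with Benjamini-Hochberg adjustment over all genes of that tissue and a threshold of 0.05, and the F test between tissues over all 36 arrays. Counts and promoter matches came from pandas 2.3.3 and numpy 2.4.6 under Python 3.11.15, and figures from matplotlib 3.10.9. The number of arrays limits the precision. The fit was tested on simulated data. Values per array are given for up to 6 members in each direction per tissue for LPS against mock and 4 for LPS+genipin against LPS, ranked by size among called members whose arrays did not overlap, for those called in all 4 tissues or in opposite directions, and for others by role. Genes of the pathway lists are named where they were among the 2 largest called differences of a list in a tissue. The members and lists were chosen with earlier results of these data known. Alternatives were another floor or none, equal array medians, the mean of all probes of a gene, leaving out the faintest 25% of genes, a 2-fold minimum, a trended and robust variance prior, a replicate block and leaving out each array.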

Additional observations from a re-analysis of the deposited data

Results flagged for a closer look

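The difference between LPS and mock varied with tissue for 14 of the 16 members tested in all 4 tissues, and the difference between LPS+genipin and LPS for 16 of 16, by limma's F test over the 36 arrays. Of all genes so tested, 77.1% and 74.5% were called. Lamb1, Lamc1 and Mmp2 in liver and Timp3 in kidney had a group at a limit of the scale on all 3 arrays for LPS against mock, as had Lamb1 and Mmp2 in liver for LPS+genipin against LPS. Of the other members, 10 of 12 and 14 of 14 were called.

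Members were also picked out where they were called in opposite directions in a pair of tissues. The pairwise limma values below were computed once those directions had been seen, so their p-values rest on pairs chosen for differing and describe them only. The LPS change of Lama1 was 2.24 log2 units lower in brain than in kidney (-2.24 ± 0.18, adjusted p = 2.95e-08). Col18a1 differed between heart and liver by 1.91 ± 0.17 (adjusted p = 2.21e-07) and between brain and liver by 1.28 ± 0.16 (adjusted p = 3.39e-06). Col8a1 differed between heart and kidney by -1.04 ± 0.08 (adjusted p = 8.84e-08). For Col1a1 the change in heart exceeded that in kidney by 0.99 ± 0.11 (adjusted p = 3.35e-06), and brain minus heart was -0.87 ± 0.14 (adjusted p = 0.000126). Lama2 gave 0.90 ± 0.12 for brain minus kidney (adjusted p = 1.42e-05) and 0.96 ± 0.14 for brain minus heart (adjusted p = 5.17e-05). Lama5 gave -0.64 ± 0.09 for heart minus kidney (adjusted p = 6.31e-05), and Col20a1 -0.70 ± 0.13 for brain minus kidney (adjusted p = 0.000258), where the brain change on its own was lost when some single arrays were left out.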

How the results depend on the processing

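The 80 single-gene values whose refits are counted here were the largest called differences without overlap in each tissue and direction. They came from LPS against mock and from LPS+genipin against LPS, and this choice favoured values that hold. None of the 80 single-gene values changed sign under the alternatives run. A 2-fold minimum left 5, 6, 6 and 5 called members in brain, heart, kidney and liver for LPS against mock, 2, 5, 8 and 4 for LPS+genipin against LPS, and 1, 0, 3 and 4 for LPS+genipin against mock, where limma gave 14 heart members an unadjusted p under 0.05. Leaving out the faintest genes (lowest 25%), which tests fewer members, left 14 in brain for LPS against mock, 10 in brain and 9 in liver for LPS+genipin against LPS, and 9 in liver for LPS+genipin against mock. Leaving out 1 array at a time gave 21 to 25, 21 to 23, 29 to 33 and 13 to 16 calls, in that order, for LPS against mock, 17 to 21, 21 to 26, 27 to 32 and 11 to 15 for LPS+genipin against LPS, 9 to 14, 9 to 14, 23 to 28 and 13 to 14 for LPS+genipin against mock, and 13 to 14 and 14 to 16 in the tests between tissues. Of the 80 values, 529 refits under other settings kept the call and 4 lost it, and 700 kept it and 20 lost it with an array left out. All the losses were in the 5 values whose ranges stand in the report. Other calls in the report were not among the 80, and several lay close to the threshold. Timp3 in liver and Lama2 in heart for LPS against mock are examples. Whether such calls hold under the alternatives is not shown. Within a tissue, deviations of same-numbered arrays of different groups correlated at -0.526 to 0.261 (median -0.011), and 9 of 36 pairs were over 0.1. Pairs of other numbers there ran from -0.322 to 0.594 (median 0.023), with 17 of 72 over 0.1. The highest were LPS array 3 with LPS+genipin array 1, at 0.590 in heart and 0.594 in liver, which a block by number does not take up. Between tissues of 1 group, same-numbered arrays correlated at -0.248 to 0.627 (median 0.084), with 24 of 54 pairs over 0.1 against 16 of 108 pairs of other numbers, and all 3 LPS pairs of heart and liver (0.516, 0.419 and 0.627) were. With the replicate block the counts were 24, 21, 31 and 14 for LPS against mock, 21, 23, 31 and 12 for LPS+genipin against LPS, 14, 12, 27 and 13 for LPS+genipin against mock, and 14 and 16 between tissues, none of them moved by over 1.5 times. The floor limits what can be said of faint members, 13 of which touched it in brain on at least 1 array.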
